A study of Mus musculus with 8 samples.

Results

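Histone mRNA was examined class by class in E14 mouse ESCs, a feeder-independent line of the 129/Ola strain kept with LIF, during the transition from serum to 2i. The genes were those of the count tables whose GENCODE M21 symbol began with Hist1h, Hist2h, Hist3h or Hist4, and 57 of the 37263 identifiers in the tables met this rule. They comprised 6 genes for the linker histone H1, 18 for H2A, 14 for H2B, 7 for H3 and 12 for H4, of which 54 were annotated as protein-coding and 3 as pseudogenes. By the M21 annotation (GRCm38), 45 of them lie on chromosome 13, 9 on chromosome 3 and 3 on chromosome 11. Another 13 genes of M21 met the rule and were not analysed here.

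RNA was collected 4, 16, 24 and 32 hr after serum medium was exchanged for 2i, a serum-free medium with LIF, the MEK inhibitor PD0325901 and the GSK3 inhibitor CHIR99021. Cells received 2i alone or 2i with 17 µM vitC (L-ascorbic acid). Each of the 8 combinations of time and medium was represented by 1 library, so that neither medium has replicate cultures at any time, and no serum library was analysed here. Ribosomal RNA was depleted and no poly(A) selection is described. The libraries held 4753528 to 18434932 counts, with the lowest totals at 16 and 24 hr with vitC. All 8 ESC markers (among them Pou5f1, Sox2 and Nanog) were detected in every library. They summed to 1680 to 1922 CPM (counts relative to the TMM-scaled total of a library) in 2i and 1578 to 1640 CPM with vitC. Single markers moved in both directions under these sums. From 4 to 32 hr, Sox2 went from 145 to 325 CPM in 2i and from 120 to 263 CPM with vitC. Utf1 went from 19.0 to 2.08 CPM in 2i and from 14.4 to 1.83 CPM with vitC.

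Core histones (H2A, H2B, H3 and H4) form the octamer around which DNA is wrapped, and linker histone H1 binds where DNA enters and leaves this particle. The clustered histone genes described here are mostly replication-dependent: they are transcribed in S phase, usually lack introns, and give mRNAs that end in a conserved stem-loop in place of a poly(A) tail. Stem-loop binding protein (SLBP) binds this structure and acts in the processing, translation and decay of the mRNA. Cycling ESCs carry large amounts of these transcripts.

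The stem-loop of H4 genes differed in sequence from that of the other classes, which shared their main form. An annotated 3' UTR was present for 46 of the 54 protein-coding members, and 38 of these (82.6%) held the searched form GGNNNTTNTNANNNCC with a fully paired stem of 6 bases, compared with 35 of 20985 (0.167%) other protein-coding genes with a 3' UTR. It was found in 4 of 5 H1, 9 of 11 H2A, 8 of 12 H2B, 6 of 7 H3 and 11 of 11 H4 genes. All 27 matches outside H4 opened with GGCTC and closed with GAGCC. None of the 11 H4 matches did so: 9 opened with GGCCC and closed with GGGCC, and Hist1h4b and Hist1h4j opened with GGTCC and closed with GGACC. The sites of 6 genes to which the results below return are printed from the M21 transcripts with the 16 bases of the stem-loop in capitals, to show how the H1 and H2B form differs from those of H4.
Hist1h1c: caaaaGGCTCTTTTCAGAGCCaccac
Hist1h2be: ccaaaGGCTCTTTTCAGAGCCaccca
Hist1h2bk: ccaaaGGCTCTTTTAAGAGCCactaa
Hist1h4a: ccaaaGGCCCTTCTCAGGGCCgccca
Hist1h4d: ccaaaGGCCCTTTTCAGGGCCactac
Hist1h4j: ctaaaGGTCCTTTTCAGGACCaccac

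Hist1h4a was the only 1 of the 38 with TTCT in place of TTTT. Stem sequence and class coincided for all 11 H4 matches, so that a change shared by H4 genes cannot be told apart from a change shared by genes with these stems.

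The copies within a class are close in sequence, which limits what a count for 1 gene can say. Over annotated exons, the median share of 50-base stretches (the read length) found in no other M21 gene was 98.9% for H1, 60.1% for H4, 57.9% for H2B, 36.5% for H3 and 32.7% for H2A. How the authors' counting treated reads with several matches is not given in the sources used here. At 0 counts in all 8 libraries were 6 members, namely Hist1h2bq, Hist1h2br, Hist1h4m, Hist2h2aa1, Hist2h2aa2 and Hist2h3c1, of which the last 3 had no unique 50-base stretch. A count of 0 allows up to 3 counts, which was 0.158 to 0.643 CPM depending on the library. Hist2h3b also had no unique stretch and lies over another annotated gene, Gm20628, but was counted at 84.5 to 244 CPM. The members of a class were therefore also summed, since a sum does not depend on how reads are split among them, although reads discarded for matching several copies remain missing.

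Within each class a few genes supplied most of the RNA. Levels between genes are given per length as RPKM, from TMM-scaled totals and merged exon lengths. In H1, Hist1h1a had the highest mean (1073 RPKM, range 782 to 1343 over the 8 libraries), ahead of Hist1h1b (686) and Hist1h1c (249.8). The leading H2A genes were Hist1h2ak (690.3 RPKM), Hist1h2ai (481) and Hist1h2ab (393). The leading H2B genes were Hist1h2bb (802 RPKM), Hist1h2bk (521) and Hist1h2bj (478). Hist1h3b (446 RPKM), Hist1h3e (407) and Hist2h3b (328) led H3, with Hist1h3e first when the coding length was used instead. Hist1h4d (801 RPKM), Hist1h4h (699) and Hist1h4k (639) led H4, and Hist1h4d alone held 41.4% of the H4 counts. The testis-enriched members were far lower, at a mean of 3.55 RPKM for the spermatid linker histone gene Hist1h1t, 18.8 for Hist1h2aa and 36.0 for Hist1h2ba.

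**Figure D1:**
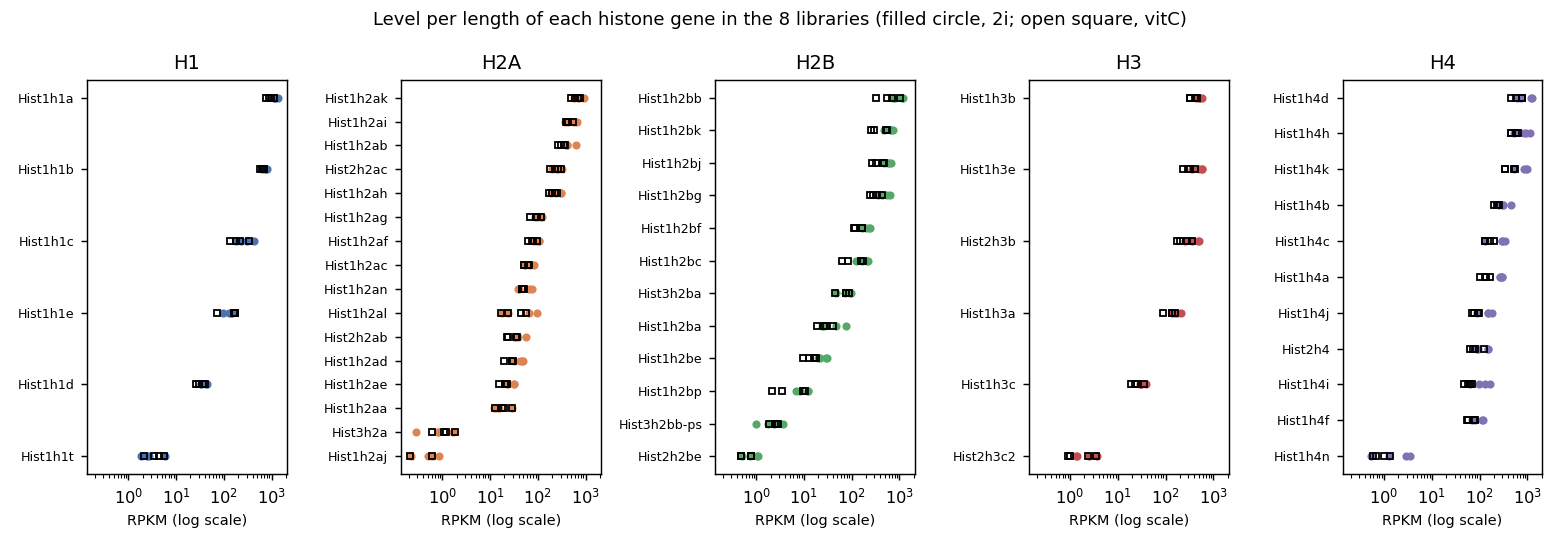
RPKM on a log axis for each member with any count, 1 panel per class, in order of the mean; filled circles are the 4 libraries in 2i and open squares the 4 with vitC, and values of 0 are not drawn. Within a class, levels spread widely, as from 3.55 to 1073 RPKM in the H1 means, while the 8 libraries of most genes lie close together, with the H2B and H4 squares mostly to the left of the circles.

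Summed by class, H1 and H4 were the most abundant by counts. In 2i, H1 stood at 2157 CPM (4 hr), 2172 (16 hr), 2496 (24 hr) and 2832 (32 hr), an order of times kept in all series of 4 values that follow. With vitC the H1 sums were 1729, 2097, 1839 and 2517 CPM. H1 was thus highest at 32 hr in both media. H4 ran differently, with 2489, 3084, 1751 and 3370.0 CPM in 2i and 1923, 1361, 1511 and 2031 CPM with vitC. In 2i the H4 sum at 24 hr was the lowest of the 4 times, and with vitC the lowest was at 16 hr.

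H2B had 1817, 1931, 1529.7 and 2114 CPM in 2i and 1466, 1016, 763 and 1660.3 CPM with vitC. Its lowest sum came at 24 hr in both media, and the vitC sums at 4, 16 and 24 hr lay below every 2i value. H2A stood at 1087, 1383, 1209 and 1566 CPM in 2i and at 986, 1158, 956 and 1317 CPM with vitC. H3 had 851, 1139, 1032 and 1164 CPM in 2i and 677, 688, 564 and 902 CPM with vitC. Each of these sums carries a Wilson 95% interval of less than 4% of its value to either side, which covers counting error only, since the reads carry no molecular identifiers and need not be independent.

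**Figure D2:**
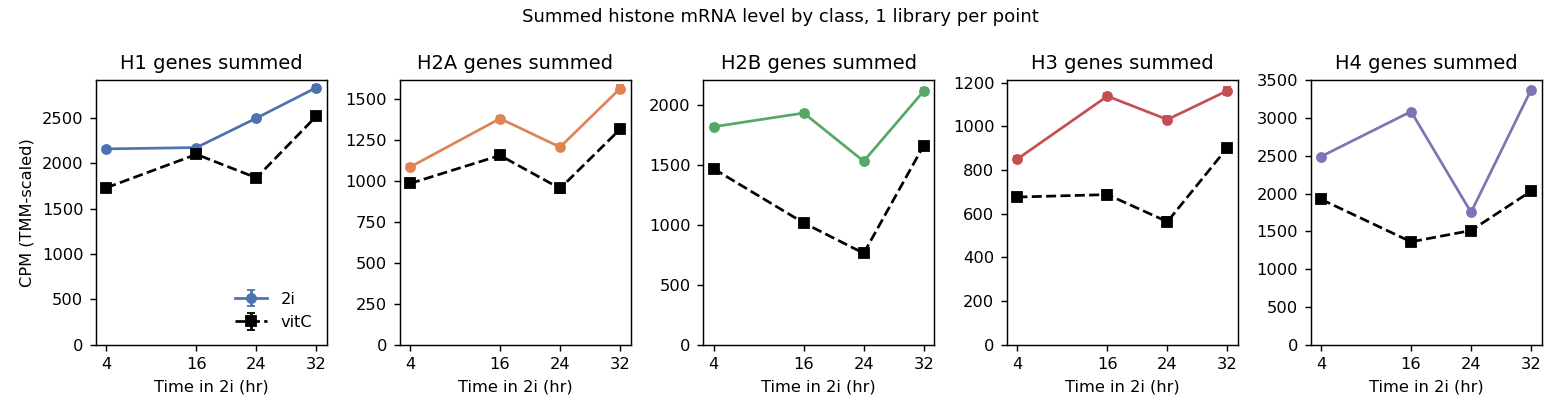
Summed CPM of each histone class against hours in 2i, from 1 library per point; coloured circles and solid lines are 2i, black squares and dashed lines vitC, and the error bars (95% counting intervals) are mostly smaller than the symbols. H1 rises to 2832 and 2517 CPM at 32 hr, whereas H2B and H4 have a low at 16 or 24 hr. The vitC point is below the 2i point at every time in each class.

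The ratio of a class to H1 in the same library does not depend on scaling between libraries. H4 to H1 was 1.15, 1.42, 0.702 and 1.19 in 2i at 4, 16, 24 and 32 hr and 1.11, 0.649, 0.822 and 0.807 with vitC. H2B to H1 was 0.843, 0.889, 0.613 and 0.746 in 2i and 0.848, 0.484, 0.415 and 0.660 with vitC. At 4 hr the media were close in both ratios. The 4 lowest values of both ratios belonged to the 24 hr library of 2i and to the 3 later libraries of vitC. H2A to H1 stayed between 0.484 and 0.637 in all 8 libraries. H3 to H1 lay between 0.391 and 0.524 in the 2i libraries and vitC at 4 hr, and between 0.307 and 0.358 in the later vitC libraries. Expressed as shares of all histone counts, H1 ranged from 22.4% (2i, 16 hr) to 33.2% (vitC, 16 hr) and H4 from 21.5% (vitC, 16 hr) to 31.8% (2i, 16 hr).

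**Figure D3:**
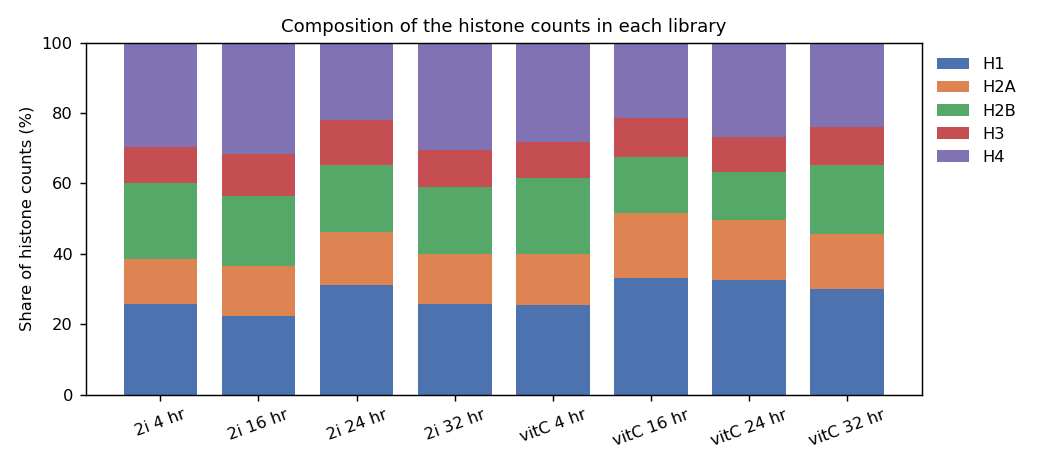
Share of all histone counts (%) taken by each class, stacked, in each of the 8 libraries. The H1 share is above 29% in 2i at 24 hr and with vitC at 16, 24 and 32 hr and at or below 25.7% in the other 4 libraries.

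The same 4 libraries stand apart in another measure. Lars2, the mitochondrial leucyl-tRNA synthetase gene, together with 2 features varying alongside it, took 5.92% of the counts in the 24 hr library of 2i, 7.11% in the 16 hr, 6.37% in the 24 hr and 4.21% in the 32 hr library of vitC, but 0.0113% to 0.564% in the others. Its part in the class ratios was not tested. For single genes, fits with this share as a covariate and fits without these features are given beside the calls below, whereas a fit restricted to the other 4 libraries has no residual degrees of freedom. The 4 and 24 hr libraries ran on lane 8 and the 16 and 32 hr libraries on lane 7, so that lane and time cannot be told apart except for 24 hr against 4 hr and 32 hr against 16 hr, which were within a lane.

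For the genes one by one, time was tested over both media with edgeR's quasi-likelihood model (Benjamini-Hochberg adjusted p under 0.05), whose error is how far the media depart from parallel time courses, as there are no replicate cultures. The 7 members not tested were the 6 at 0 counts and the pseudogene Hist1h2aj, leaving 50. These 50 passed on their counts over all libraries and are not all members.

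Between 4 and 24 hr, genes for H2B and H4 fell and 2 linker histone genes rose. Of 50 members, 2 rose (11.5% of the 14931 genes tested did so) and 10 fell (8.98% of all genes tested). The 10 were 4 of 12 H2B genes, 5 of 11 H4 genes and the H2A gene Hist1h2aa, with no H3 gene among them. The median log2 fold change was -0.45 in H2B and -0.58 in H4, 0.09 in H1, 0.02 in H2A, 0.11 in H3 and 0.01 over all genes tested.

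Hist1h2bc had the largest fall among the members that passed. It stood at 238, 193, 141 and 256 CPM in 2i and at 199.8, 98.0, 72.9 and 182 CPM with vitC. In each medium 24 hr was the lowest time and 32 hr was close to 4 hr again. Its log2 fold change from 4 to 24 hr was -1.10 ± 0.18 (SE, adjusted p = 0.0017 in edgeR). Hist1h2bc is 1 of the 4 H2B genes with a 3' UTR in which no stem-loop was found, and its longest annotated 3' UTR runs to 742 bases.

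The other H2B genes that fell were Hist1h2bk (log2 fold change -0.83), Hist1h2be (-0.65) and Hist1h2bf (-0.58). Hist1h2bk, among the most abundant of them, had 323, 310.5, 227 and 348 CPM in 2i and 267, 143, 121 and 244 CPM with vitC, so that it too was lowest at 24 hr in both media. Hist1h2bb, the H2B gene with the highest level, did not pass, with 364, 574, 408 and 596 CPM in 2i and 361, 280.0, 164 and 513 CPM with vitC. Its 24 hr value was above the 4 hr value in 2i and below it with vitC.

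In H4 the genes that fell by 24 hr were Hist1h4c (log2 fold change -0.87), Hist1h4k (-0.71), Hist1h4b (-0.62), Hist1h4j (-0.60) and Hist1h4h (-0.58). Hist1h4c stood at 239.7, 244, 109 and 282 CPM in 2i and at 167, 105, 108 and 138 CPM with vitC. Hist1h4b differed from the rest in that it had not recovered at 32 hr in 2i, with 181, 124, 100.5 and 121 CPM there and 102, 94.5, 79.3 and 99.1 CPM with vitC. Hist1h4d, which led the class, had 852, 1357, 684 and 1424 CPM in 2i and 889, 521, 669 and 894 CPM with vitC, and did not pass.

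The 2 members that rose encode the linker histones H1.2 and H1.4. Hist1h1c stood at 276, 349, 466 and 661 CPM in 2i and at 206, 342, 287 and 530.5 CPM with vitC, above its 4 hr value at every later time in both media. Its log2 fold change was 0.63 ± 0.16 (SE, adjusted p = 0.016 in edgeR) at 24 hr, 0.54 at 16 hr and 1.31 at 32 hr. Hist1h1e stood at 182, 252, 286 and 273 CPM in 2i and at 139, 322, 323 and 336 CPM with vitC, with a log2 fold change of 0.91 ± 0.18 (SE, adjusted p = 0.0040 in edgeR) at 24 hr. Reads of Hist1h1e and Hist1h2be may be shared, since the annotated exons of both overlap and 23.8% of the 50-base stretches of Hist1h1e also lie in Hist1h2be. The more abundant Hist1h1a and Hist1h1b did not pass at any time.

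Several of these calls depended on single libraries, and none was made with the covariate. Over all genes tested, the number that passed also fell without each library named next. The 12 calls became 5 without 2i at 24 hr, 3 without vitC at 4 hr and 6 without vitC at 24 hr. With the Lars2 share as a covariate no member passed at 24 hr in edgeR (6 members at an unadjusted p under 0.05, against 18 without the covariate). Over all genes tested none passed either, whereas 3061 had passed without it, so that the loss was common to all genes. The share was 0.0277% and 0.0113% in the 4 hr libraries and 5.92% and 6.37% in the 24 hr libraries. Both 4 hr libraries had the lowest shares of all, which limits every covariate fit against 4 hr. For 24 hr against 4 hr the share runs with time, and this fit cannot tell them apart. The fitted change of Hist1h1c (-0.03) and of Hist1h4c (0.41), Hist1h4k (0.27) and Hist1h4j (0.11) took the opposite sign. With the Lars2 features left out of the counts, 13 members passed.

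At 16 hr, 2 members had risen (9.16% of all genes tested) and 2 had fallen (7.24% of all genes tested) against 4 hr. These were Hist1h1c and Hist1h1e in one direction and Hist1h2aa (log2 fold change -1.22) and Hist1h2bc (-0.67) in the other. With the covariate the member that passed was another, Hist1h4d, and 73 genes in all did so against 2448 without it. The testis-enriched Hist1h2aa, at 11.5, 4.84, 5.40 and 6.01 CPM in 2i and 11.4, 4.90, 6.86 and 7.83 CPM with vitC, was highest at 4 hr in both media, and 23.5% of its 50-base stretches lie in Gm44344, which overlaps it.

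By 32 hr, 10 members had risen against 4 hr (13.5% of all genes tested) and none had fallen by the test (11.8% of all genes tested), although 15 of 50 had a negative fitted change. They were Hist1h1c and Hist1h1e, 5 H2A genes (Hist1h2ak, Hist1h2ai, Hist1h2ab, Hist1h2ah and Hist1h2ac), the H3 genes Hist1h3a and Hist1h3b, and Hist2h4. Their log2 fold changes lay between 0.45 (Hist1h3b) and 1.31 (Hist1h1c). None of 12 H2B genes passed, and 1 of 11 H4 genes did.

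Hist1h2ak, the most abundant H2A gene, had 228, 278, 289 and 360.2 CPM in 2i and 195, 276, 239 and 304 CPM with vitC, and its log2 fold change at 32 hr was 0.65 ± 0.14 (SE, adjusted p = 0.0045 in edgeR). Hist2h4, whose exons are almost entirely unique (99.0%), stood at 148, 248.6, 142 and 247 CPM in 2i and 105, 119.6, 132 and 206 CPM with vitC, with a log2 fold change of 0.86. Hist1h3b, an H3 gene, had 273, 319, 316 and 366 CPM in 2i and 204, 255, 197 and 281 CPM with vitC. All 3 were highest at 32 hr, except Hist2h4 in 2i, where 16 and 32 hr were nearly equal. With the Lars2 covariate 1 member passed, again Hist1h4d, as did 158 genes in all against 3784 without it. The 10 calls became 6 without 2i at 4 hr, 3 without 2i at 32 hr, 4 without vitC at 4 hr and 4 without vitC at 32 hr. In each of these fits the number that passed over all genes tested fell as well. Lane and time cannot be told apart in this comparison.

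Within lane 7, between 16 and 32 hr, edgeR called no member in either direction (0.335% of all genes tested rose and 0.248% fell), with 9 members at an unadjusted p under 0.05. DESeq2 called 1 member, Hist1h1c, whose edgeR log2 fold change was 0.77 from 16 to 32 hr.

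**Figure D4:**
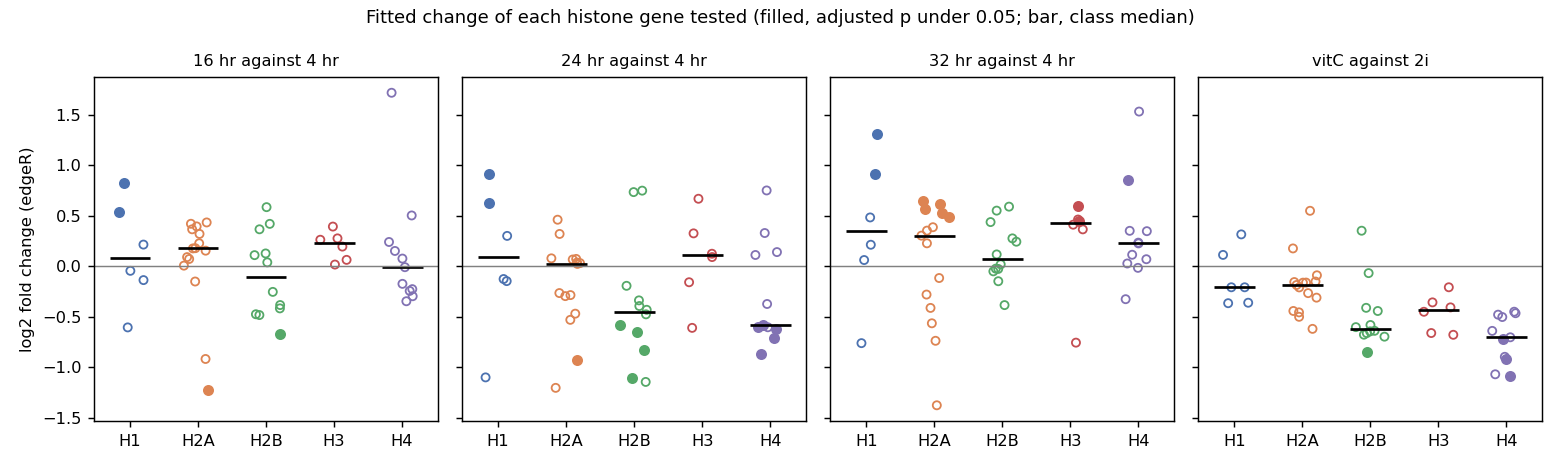
Fitted log2 fold change (edgeR) of each of the 50 members tested, by class, for 16, 24 and 32 hr against 4 hr and for vitC against 2i; filled points passed an adjusted p of 0.05 and the bar is the class median. At 24 hr the filled points of H2B and H4 lie below 0 and those of H1 above it, at 32 hr all filled points lie above 0, and with vitC the 10 H4 points other than Hist1h4n lie below 0.

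With vitC, the summed histone mRNA was lower than in 2i at the same time in all 20 comparisons of class and time. Alternatives turned 3 of these: with GC content and length offsets H2A at 4 hr was at 0.070 and H4 at 24 hr at 0.064, and without its most abundant member H1 at 16 hr was at 0.12. The 20 comparisons rest on 4 pairs of libraries, and the classes within a pair are not independent. The log2 ratios of the class sums lay between -0.05 (H1 at 16 hr) and -1.18 (H4 at 16 hr). At 4 hr they were -0.32 for H1, -0.14 for H2A, -0.31 for H2B, -0.33 for H3 and -0.37 for H4. At 16 hr they were -0.26 for H2A, -0.93 for H2B, -0.73 for H3 and -1.18 for H4, against -0.05 for H1. At 24 hr H1 and H2A stood at -0.44 and -0.34, H2B and H3 at -1.004 and -0.87, and H4 at -0.21. At 32 hr the ratios were -0.17, -0.25, -0.35, -0.37 and -0.73 in the order H1, H2A, H2B, H3 and H4. Of 50 members, 37, 42, 46 and 38 were lower with vitC at the successive times, whereas 48.8% to 52.0% of all genes tested were. The members come from the same libraries and may share reads, so that they are not replicates of the medium.

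Histone sums across all classes were 8401, 9709, 8017 and 11046 CPM in 2i and 6782, 6320, 5632 and 8429 CPM with vitC. The highest vitC value thus fell within the 2i range and the other 3 below it. Fewer cells in S phase and less histone mRNA per cell cannot be told apart in bulk RNA.

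The test over the 4 matched times called 4 members lower with vitC (0.0603% of all genes tested) and none higher (0.107% of all genes tested). In edgeR 29 of 50 members had an unadjusted p under 0.05, compared with 2062 of 14931 genes. Hist1h4n, at 0.250 to 0.576 CPM with vitC, reached 1 CPM in 2i libraries alone and so was tested only because of them. Without it, the fitted change was negative for 44 of 49 members, including 10 of 10 H4, 6 of 6 H3 and 11 of 12 H2B genes. The class medians were then -0.21 (H1), -0.18 (H2A), -0.62 (H2B), -0.43 (H3) and -0.67 (H4), against -0.02 over all genes tested. The counts by time given above include Hist1h4n, and the members in all these counts are not independent of one another.

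Hist1h4a showed the largest of the 4 falls. It stood at 148, 157, 143 and 159 CPM in 2i and at 54.6, 73.8, 91.4 and 71.6 CPM with vitC, so that the media did not overlap. The log2 fold change was -1.09 ± 0.12 (SE, adjusted p = 0.0039 in edgeR). The difference was present at 4 hr already, with a log2 ratio of -1.44 there and of -0.64 to -1.15 later. About 59.6% of its 50-base stretches are unique, and Hist1h4k shares the most with it.

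Hist1h2be, an H2B gene, had 136, 94.7, 89.0 and 127 CPM in 2i and 71.0, 57.5, 43.1 and 78.3 CPM with vitC, again without overlap. Its log2 fold change was -0.84 ± 0.10 (SE, adjusted p = 0.0062 in edgeR). Hist1h1e, whose exons overlap those of Hist1h2be, ran the other way at 3 of the 4 times, with a fitted change of 0.32 that did not pass.

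Hist1h4k stood at 273, 296, 167 and 308 CPM in 2i and at 171, 108, 105 and 167 CPM with vitC. The ranges touched, because 2i at 24 hr was below vitC at 4 hr, although vitC was lower at each time. The log2 fold change was -0.92 ± 0.13 (SE, adjusted p = 0.017 in edgeR). Of its 50-base stretches 28.5% are unique and 71.1% also lie in Hist1h4a, so that these 2 calls may share reads. Hist1h4j, at 114, 115, 68.9 and 139 CPM in 2i and 75.7, 58.4, 54.9 and 72.1 CPM with vitC, was likewise lower at each time with overlapping ranges (log2 fold change -0.72, adjusted p = 0.041 in edgeR).

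Which members passed depended on the fit. Adjusted p-values over 14 alternatives ran from 4.2e-18 to 0.26 for Hist1h4a, from 2.6e-10 to 0.96 for Hist1h2be, from 5.5e-14 to 0.96 for Hist1h4k and from 2.2e-07 to 0.96 for Hist1h4j, with a negative change in each. Without the 32 hr libraries no member passed in edgeR (28 at an unadjusted p under 0.05), and without the 4 hr libraries 13 did. Over all genes the numbers were 0 and 381, against 25 with all libraries, so that the member counts moved with the total. DESeq2 called 19 members lower, among them 7 H4, 7 H2B and 3 H3 genes, of 297 genes in all. With the Lars2 share as a covariate the members that passed were Hist1h4a (-1.11) and Hist1h2be (-0.93), of 4 genes in all, and with the Lars2 features left out 9 of 60 genes that passed were members.

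A linear change of the vitC effect with hours was found for no member and no gene in edgeR (0% of genes tested in either direction), with 1 member and 431 genes at an unadjusted p under 0.05. Class by class the effect nevertheless took different values at different times, as in H4, whose sum had log2 ratios of -0.37, -1.18, -0.21 and -0.73. With 1 library per combination these differences have no replicate check.

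Many H2A and H2B genes lie head to head and share an intergenic promoter, which places a gene of each class under the same upstream sequence. Such pairs with starts within 500 bp numbered 8, at 176 to 306 bp, and all 16 genes were tested. With vitC the H2B gene had the lower log2 fold change in 7 of 8 pairs, with a median difference of -0.46 over the 8. For 24 hr against 4 hr it was lower in 7 of 8 pairs as well, with a median difference of -0.33. Hist1h2bc fell by 1.10 while its neighbour Hist1h2ac, 251 bp away, stood at 0.02. Hist1h2bk fell by 0.83 and its neighbour Hist1h2ah, 302 bp away, stood at 0.07. The exception at 24 hr was the testis-enriched pair, in which Hist1h2ba was at 0.73 and Hist1h2aa at -0.92. For 32 hr against 4 hr the H2B gene was lower in 3 of 8 pairs. The differences within pairs were not tested, and reads shared between copies make single values of both classes less certain. Of the 50-base stretches, 25.8% were unique in Hist1h2bk and 7.87% in Hist1h2ah, against 69.4% in Hist1h2bc and 85.9% in Hist1h2ac. Some H2B values rest on few counts: with vitC, Hist2h2be had 17, 14, 6 and 24, and Hist1h2bp had 17 and 7 at 16 and 24 hr.

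**Figure D5:**
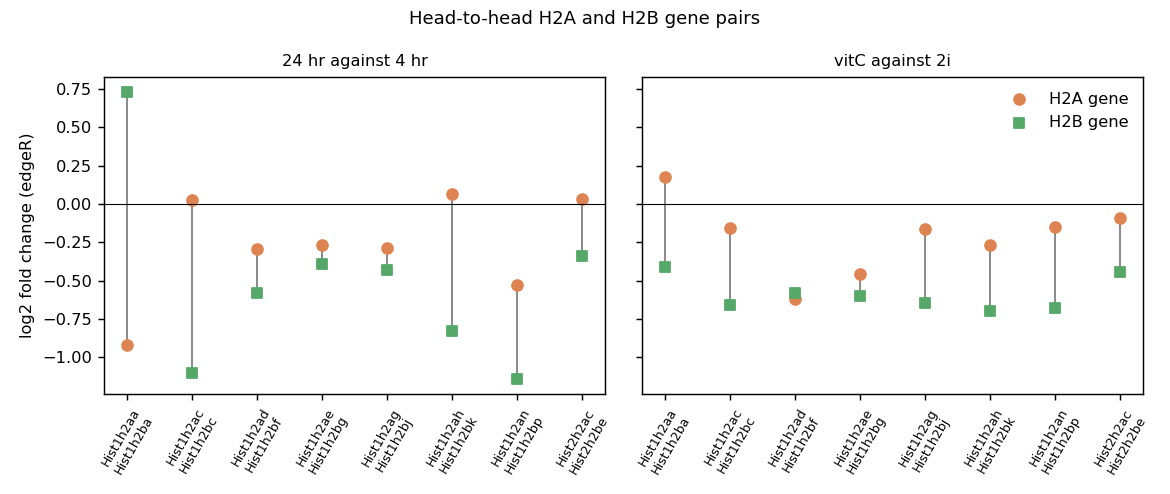
log2 fold change (edgeR) of the H2A gene (circle) and the H2B gene (square) of each of the 8 head-to-head pairs, for 24 hr against 4 hr and for vitC against 2i, joined by a line. The square is below the circle in 7 of 8 pairs in each panel, the exceptions being Hist1h2aa with Hist1h2ba at 24 hr and Hist1h2ad with Hist1h2bf with vitC.

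Promoters from RefSeq (GRCm38.p6), 250 bases before to 50 bases after the start, were matched for 50 members (51 sequences). The octamer ATTTGCAT, searched on both strands and known as the binding site of OCT1 in H2B promoters, was present in 7 of 16 H2A and 5 of 12 H2B windows and in none of H1, H3 or H4, against 1.74% of all promoters. Windows of head-to-head pairs overlap, so that an octamer can be counted for both genes. TATAAA was found in 4 of 6 H1, 11 of 16 H2A, 7 of 12 H2B, 1 of 6 H3 and 8 of 11 H4 windows, against 13.6% of all promoters. CCAAT was present in every H1, H2A, H2B and H3 window but in 3 of 11 H4 windows, against 37.4% of all promoters. The 130 bases before the start are printed for 3 genes that passed a test, 1 each from H1, H2B and H4, with these motifs in capitals where they read on the gene's strand or its complement. Hist1h1c is at chr13:23738677-23738806 (plus strand), Hist1h2be at chr13:23585971-23586100 (minus strand, the one of its 2 RefSeq starts with an octamer) and Hist1h4k at chr13:21750554-21750683 (minus strand).
Hist1h1c: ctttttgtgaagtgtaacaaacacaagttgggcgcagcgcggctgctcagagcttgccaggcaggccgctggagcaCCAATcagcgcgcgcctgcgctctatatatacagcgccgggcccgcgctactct
Hist1h2be: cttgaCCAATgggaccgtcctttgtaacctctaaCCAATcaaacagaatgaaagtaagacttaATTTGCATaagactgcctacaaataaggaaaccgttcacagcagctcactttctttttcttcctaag
Hist1h4k: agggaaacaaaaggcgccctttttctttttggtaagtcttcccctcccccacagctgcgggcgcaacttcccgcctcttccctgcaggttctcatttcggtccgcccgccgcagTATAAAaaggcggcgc

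Hist1h1c shows a CCAAT, Hist1h2be a pair of CCAAT and an octamer, and Hist1h4k a TATAAA close to its start. A match says that these letters are present, not that a factor binds there.

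Outside the main pattern, the pseudogene Hist1h2al stood at 8.15, 21.97, 32.3 and 5.94 CPM in 2i and 19.6, 7.92, 5.79 and 14.9 CPM with vitC. Hist1h2ba was likewise high in 2i at 16 and 24 hr, with 10.1, 18.1, 29.1 and 9.20 CPM in 2i and 11.2, 9.94, 7.08 and 15.9 CPM with vitC. Hist3h2ba was also higher in 2i at 16 and 24 hr, with 44.05, 60.5, 57.4 and 28.6 CPM. With vitC it had 55.1, 46.4, 27.9 and 47.2 CPM. These genes were singled out after their values were seen, and none of them passed any test.

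Genes with related roles are set beside these changes, and their counts at 24 hr should be read against the 11.5% of all genes tested that rose and the 8.98% that fell. Among replacement and variant histones, which are made outside S phase as well, 10 of 13 measured genes were tested. The macroH2A genes H2afy (log2 fold change 1.21 at 24 hr) and H2afy2 (0.85) rose and the H3.3 gene H3f3b (-0.77) fell, and at 32 hr the H2A.Z gene H2afz (-0.81) had fallen as well. Of 22 genes for histone gene transcription and 3' end processing, 2 rose and 5 fell by 24 hr. They included Slbp itself (-0.59), the cyclin E gene Ccne2 (-0.88), whose kinase acts on the histone locus factor NPAT, and Zfp473 (-0.73), whose protein works with the U7 snRNP, among those that fell, and the RNA helicase gene Dhx9 (0.71) among those that rose. Of 27 histone chaperone genes 4 fell, led by the H3-H4 chaperone gene Asf1a (-0.73) and by Dnajc9 (-0.62), and none rose.

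Among 30 genes of S phase and replication, 1 rose (E2f1, 0.97) and 8 fell (Ccne2 and Slbp, already named, and for example Fen1, -0.79), with a median of -0.29, and of 20 genes of G2 and M phase 1 rose and 3 fell, with a median of -0.08. With vitC none of these 5 lists had a gene called in either direction (edgeR). Over all genes tested, 0.107% were called higher and 0.0603% lower, so that no call was near that share. The medians of the lists lay between -0.10 and 0.06, against -0.02 over all genes tested. Those of H1 and H2A were -0.21 and -0.18, and those of H2B, H3 and H4 were between -0.43 and -0.67. These medians are given side by side without a test.

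Markers of other cells summed to lower levels, and none of them was at 0 in all libraries. More than 3 counts in every library were reached by 3 of the 8 primitive endoderm and 7 of the 8 fibroblast markers. The 8 primitive endoderm markers summed to 66.8 to 121 CPM in 2i and 83.1 to 155 CPM with vitC. Most of this was Lama1, with 49.7 to 95.7 CPM in 2i and 63.5 to 122 CPM with vitC. Of 6 tested, 3 rose by 24 hr (11.5% of all genes tested did so). The 8 fibroblast markers summed to 123 to 382 CPM in 2i and 107 to 694 CPM with vitC, mostly from Col1a1 and Col1a2. By 24 hr 4 of 7 tested rose, among them Col1a2 (log2 fold change 2.25) and Postn (3.08). At 32 hr against 4 hr 4 rose (13.5% of all genes tested did so) and 1, Thy1 (-1.80), fell (11.8% of all genes tested). None of either list was called with vitC (0.107% of all genes tested were called higher and 0.0603% lower). Their part in the histone changes was not tested.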

How the data were processed

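The authors depleted total RNA of ribosomal RNA, made TruSeq libraries and sequenced 50 bp single-end reads. They deposited raw counts per Ensembl gene for each of the 8 libraries, without normalization. The submitters' processing notes name GSNAP (2012-07-20), HTSeq, NCBIM37 and mm9. The roles of these names, the annotation, the strand setting and the treatment of reads with several matches are not given in the sources used here. Groups came from the sample labels, and the lane from the names of the deposited files.

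Symbols, classes, exon lengths, overlaps and sequences came from GENCODE M21, in which 32604 of 37263 identifiers were found. As M21 is a later build than mm9, file coordinates were not used. The 14931 genes that reached 1 CPM in 2 or more libraries were tested with edgeR 4.0.16 in R 4.3.3 (TMM scaling, quasi-likelihood test, Benjamini-Hochberg adjustment over all of them, threshold 0.05). Times were compared in a model with additive medium and time terms, and vitC with time as a block (3 residual degrees of freedom each), and its change with hours by a linear term (2). With 1 library per combination the p-values set each fitted change against the departure of libraries from these models. Class sums, and RPKM computed from the deposited counts, have no test. The scripts were tested on simulated data.

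Alternatives were RLE scaling, library totals only, DESeq2 1.42.0, no filter, at least 5 CPM, offsets for GC content and length, thinning to the smallest total, leaving out Lars2 with 2 features varying alongside it, their share as a covariate, models without the medium or time term, omission of each library or pair, and omission of the member with the most counts. Class sums over members with at least 50% unique 50-base stretches were added after seeing the data.

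Named members were the 3 with the highest RPKM in each class, those called in a comparison (up to 6 per class) and the testis-enriched ones, and named genes of other lists were up to 4 with the largest change. The members, lists and rules were chosen with earlier results of these data known.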

Additional observations from a re-analysis of the deposited data

Results flagged for a closer look

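In 3 class sums the direction from 4 hr differed between the media with 95% counting intervals that left out 0 in both, and the difference was not tested, as each value compares 1 library with another. From 4 to 16 hr the H2B sum had a log2 ratio of 0.09 in 2i and of -0.53 with vitC. Over the same interval the H4 sum had a log2 ratio of 0.31 in 2i and of -0.50 with vitC. From 4 to 24 hr the H3 sum had a log2 ratio of 0.28 in 2i and of -0.26 with vitC. The H2A sum at 24 hr also had opposite signs, 0.15 in 2i and -0.045 with vitC, but the interval of the latter included 0. The H2B ratio in 2i at 16 hr was -0.10 without the member with the most counts, Hist1h2bb. Among H3 members with at least 50% unique stretches, Hist1h3a and Hist1h3c, the direction at 24 hr with vitC was the opposite, at 0.44.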

How the results depend on the processing

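Without replicate cultures, depth limits single members least in 2i at 16 hr and most with vitC at 24 hr. The labels give no replicate numbers, and the vitC test was matched on time, with both media of each time on the same lane. The number of members called at 24 hr against 4 hr was 12 and became 0 with the Lars2 share as a covariate, 1 without the medium term and 3 to 14 on leaving out 1 library. At 16 hr the 4 calls became 9 without a filter, 1 with the covariate, 2 without the medium term and 1 to 5 without 1 library (2 without 2i at 32 hr, vitC at 16 hr or vitC at 32 hr, and 1 without vitC at 4 hr). At 32 hr against 4 hr the 10 calls became 1 with the covariate, 5 without the medium term and 3 to 13 without 1 library. For 32 hr against 16 hr, DESeq2 gave 1, no filter 2, the covariate 1 and omission of 1 library 0 to 1 (1 without vitC at 16 hr). The 4 vitC calls became 19 with DESeq2, 24 without a filter, 2 with GC and length offsets and 12 after thinning. They became 9 without the Lars2 features, 2 with the covariate, 0 without the time term in edgeR (20 at an unadjusted p under 0.05), and 0 to 13 without 1 pair of libraries. Over all genes tested, 25 vitC calls became 297 with DESeq2, 690 without a filter, 11 with GC and length offsets and 119 after thinning. That total became 60 without the Lars2 features, 4 with the covariate, 0 without the time term, and 0 to 381 without 1 pair. For time over all genes tested, the 3061 calls at 24 hr became 0 with the covariate and 1889 without the medium term. The covariate runs with time in this comparison, so that its fit cannot tell them apart. At 16 hr, 2448 calls became 3145 without a filter, 73 with the covariate and 1289 without the medium term. At 32 hr against 4 hr, 3784 became 158 with the covariate and 2756 without the medium term. For 32 hr against 16 hr, 87 became 243 with DESeq2, 589 without a filter and 114 with the covariate. The class sums with vitC were lower in 18 to 20 of 20 comparisons under the alternatives. Those below 4 hr numbered 8 of 30, and 13 with GC and length offsets.

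Directions turned as follows (log2). With the covariate these were Hist1h1c (-0.028), Hist1h4c (0.41), Hist1h4k (0.27) and Hist1h4j (0.11) at 24 hr and Hist1h3a (-0.10) at 32 hr. With GC and length offsets these were Hist1h2ah (-0.047) and Hist1h2ai (-0.12) at 32 hr, the vitC to 2i ratio of H2A at 4 hr (0.070) and of H4 at 24 hr (0.064), H2A at 24 hr in 2i (-0.15), H2A at 16 hr (-0.15) and 32 hr (-0.15) with vitC, and H4 at 32 hr with vitC (-0.013). Without the member with the most counts these were the vitC to 2i ratio of H1 at 16 hr (0.12) and H2B at 16 hr in 2i (-0.10). Over members with mostly unique stretches these were H2A at 24 hr in 2i (-0.081), H3 at 16 hr in 2i (-0.18) and H3 at 24 hr with vitC (0.44). The cause was not tested in these cases.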
